A study of Piriqueta cistoides subsp. caroliniana with 18 samples.

Results

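The drought response of hybrid leaves was taken as the difference between 3 drought plants of the hybrid morphotype (H1D, H2D and H3D) and 3 well-watered hybrid plants (H1W, H2W and H3W). These are 6 of the 18 plants of the series, and they lie on 10 of its 18 arrays. Of those 10 arrays, 2 pair a drought with a well-watered hybrid plant (H1D with H2W, and H2D with H1W), and the other 8 pair a hybrid plant with a plant of 1 of its parents. The plants belong to Piriqueta cistoides subsp. caroliniana, a herbaceous perennial whose caroliniana and viridis morphotypes form hybrids. All were raised in a greenhouse from cuttings in sand, near 35 °C by day and 27 °C by night with 12 h days. Drought plants, of the hybrid and of both parents alike, went through 4 drought cycles in 36 days, and well-watered plants served as controls. The labels give neither the plants' ages nor whether the 3 plants of a group differ in genotype, so the p-values speak for these plants only. They rest on an error pooled over the 18 plants and arrays of all morphotypes, part of which may be technical. The spread between the hybrid plants alone is not what they measure.

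Leaves that lose water close their stomata, so carbon dioxide becomes scarce inside the leaf while the chlorophyll-binding antenna proteins go on absorbing light. Excess excitation then feeds the formation of superoxide and hydrogen peroxide, which superoxide dismutase, ascorbate peroxidase and catalase remove. Drought is also known in many plants for the build-up of osmolytes made from inositol or polyamines and for changes in phenylpropanoids, the source of lignin and flavonoids.

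Each array compared the RNA of 2 plants, 1 labelled with Cy5 and 1 with Cy3, on soybean cDNA clones, so that every plant was read on 2 arrays with its dye exchanged. The deposited values are log ratios that ran from -5.83 to 5.58, with 5962 to 8134 values per array. Neither their base nor the order of the channels is stated. Effects (drought minus well-watered) are therefore in log-ratio units on the reading Cy5 over Cy3, and under the inverse reading all positive effects become negative and all negative ones positive. A clone may pick up several members of a gene family across species, and the arrays carry ratios without levels, so the leaf label could not be checked against marker levels. Fewer cells of a type and less RNA per cell cannot be told apart in such leaf samples. No gene or clone sequences were used here. The number of arrays limits the precision, with a median standard error of 0.103 for the hybrid effect.

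Plant H2W stood apart from the other well-watered hybrid plants. A plant value is the plant's position on the loop of arrays, centred on 0 over all 18 plants, and it exists for the 5371 probes with a value on every array. It carries array error that neighbours on the loop share. Over the 115 such probes that were called on the positive side with all plants, the median plant value was 0.777 in H1D, 0.415 in H2D and 0.616 in H3D, against -0.894 in H1W, -0.0433 in H2W and -0.610 in H3W. H2W thus lay between the groups, higher than both other well-watered plants at 110 of these probes and still lower than every drought plant at 97. Over the 18 probes called on the negative side the medians were -0.263, -0.166 and -0.301 in the drought plants, against 0.313 in H1W, 0.00996 in H2W and 0.341 in H3W. Because these values also chose the probes, they describe the plants and test nothing. Every count below is given with all plants and without H2W, whose singling out rests on earlier results of the same arrays.

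**Figure D1:**
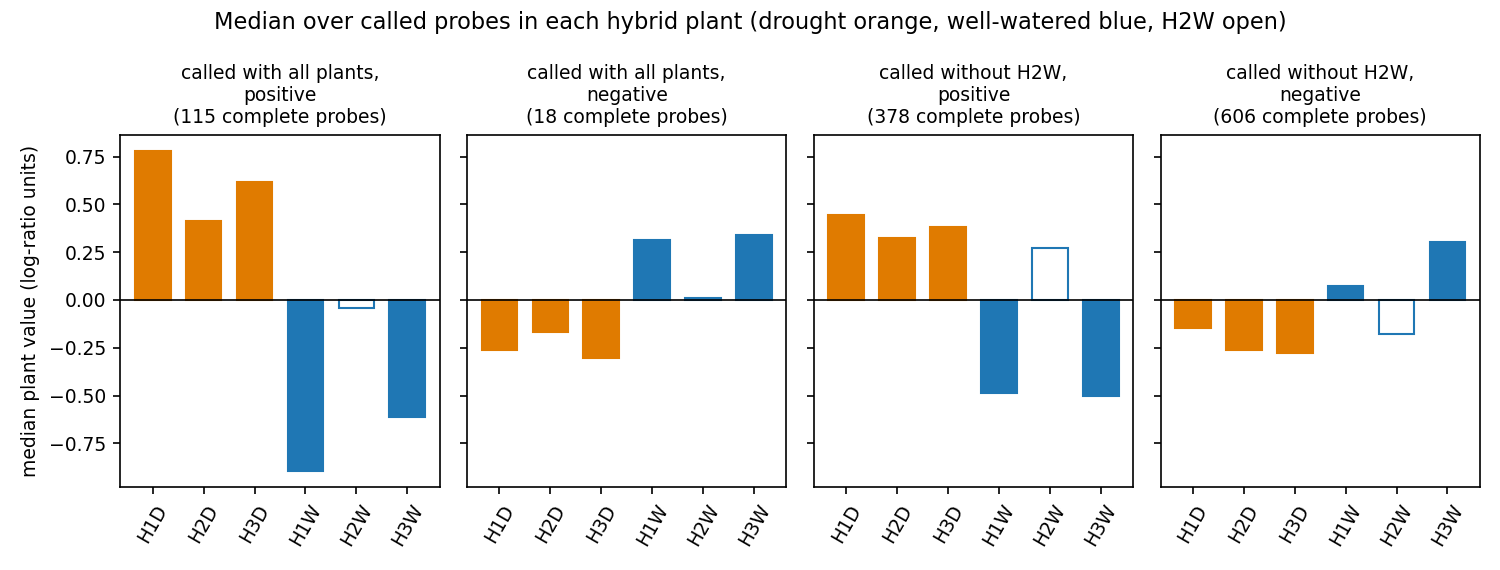
Median plant value (vertical axis, log-ratio units) of each hybrid plant over the probes called on the positive or negative side, with all plants (left pair of panels) and without H2W (right pair). Drought plants are orange, well-watered plants blue and H2W open. Over the 378 complete probes called on the positive side without H2W, the median of H2W was 0.271, on the side of the drought plants (0.326 to 0.443) and away from H1W (-0.488) and H3W (-0.501).

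With all plants, 163 of 7880 probes passed an adjusted p of 0.05 in limma's moderated test and are named calls below, 138 of them positive (1.75% of the probes tested) and 25 negative (0.317%). The positive calls had a median effect of 1.13 and ran from 0.261 to 5.41, and the negative ones had a median of -0.458 and ran from -0.274 to -2.10. An effect over 1 log-ratio unit was reached by 84 positive and 2 negative calls, while the median over all probes tested was -0.0444. The drought and well-watered plant values did not overlap at 95 of the 115 positive calls with complete values and at 14 of the 18 negative ones, against 11.6% of all complete probes. On the array of H2D against H1W the 115 positive probes had a median of 1.25, and on that of H1D against H2W 0.764. The value was the smaller where H2W took part. The fit that chose these probes used the same plants and both direct arrays, so the lack of overlap and the sign of these medians describe the calls and test nothing.

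Without H2W, which removes 2 arrays and 1 of the direct ones, 1170 of 7879 probes passed, 465 positive (5.9%) and 705 negative (8.95%). Nearly all of the 163 calls were among them, 160 with the same sign, and these made up 98.2% of the 163 and 13.7% of the 1170. Over all calls without H2W the median effect was 0.687 on the positive and -0.362 on the negative side. The split by side was not stable. When each array was centred on its median, 827 probes passed without H2W and 70.0% of them were positive, against 39.7% with the deposited centring and, with all plants, 89.3% of 168 against 84.7% of 163. The count also moved with other hybrid plants, to 61 without H1W, 70 without H2D, 105 without H3W and 229 without H1D. It was 19 with only the 10 hybrid arrays. All 163 calls kept their sign with each of the 18 plants left out in turn, and 59 of them, 58 positive, passed every time.

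**Figure D2:**
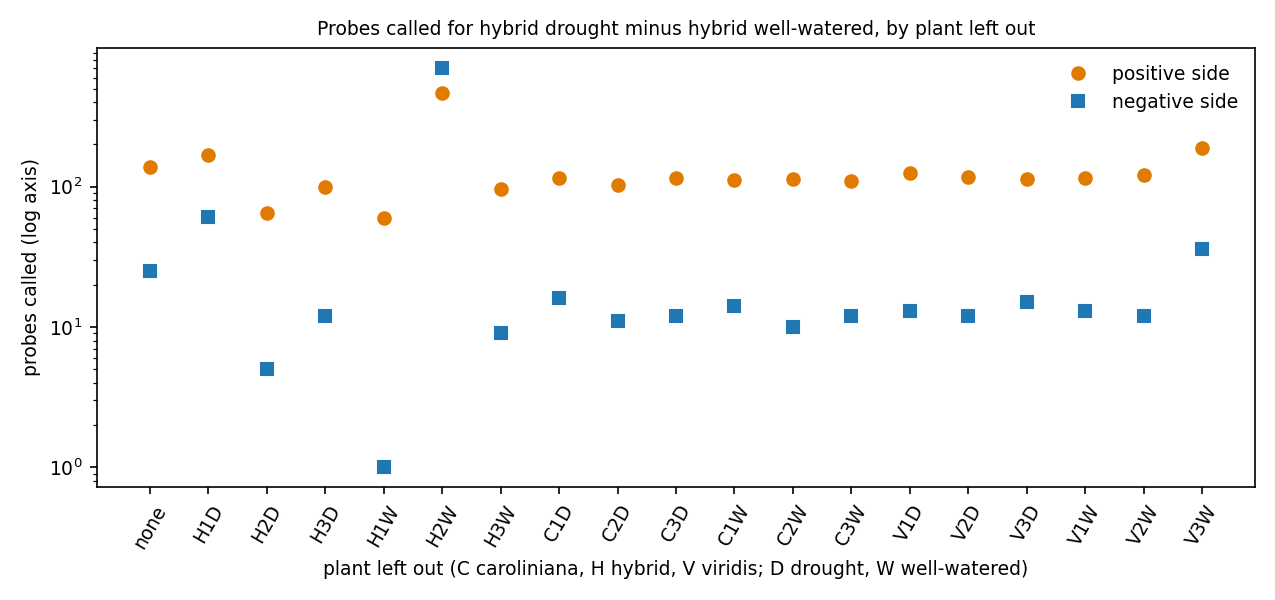
Probes called for hybrid drought minus hybrid well-watered (vertical log axis) with no plant left out and with each of the 18 plants left out in turn (horizontal axis), by side. Leaving out H2W gave the highest counts on both sides (465 and 705), and leaving out H1W gave the lowest (60 and 1).

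Light harvesting carried the largest named effects. CAB3, an antenna protein that holds chlorophylls a and b, passed on the positive side with 4 of 4 probes. Probe Gm05985 had plant values of 1.31, 0.875 and 1.08 in H1D, H2D and H3D, against -1.68, -0.517 and -0.545 in H1W, H2W and H3W. The groups did not overlap, and H2W lay with H3W. The effect was 2.33 ± 0.237 (SE, 3 plants a group; adjusted p = 2.2e-05), and 2.62 without H2W. Probe Gm06115 had 1.75, 0.652 and 0.885 in the drought plants, against -0.907, -0.733 and -0.489 in the well-watered plants. H2W lay between H1W and H3W here, and the effect was 2.29 ± 0.241 (adjusted p = 2.75e-05), or 2.19 without H2W.

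The remaining CAB3 probes had the largest effects of any named probe. Gm01099 reached 5.01 ± 0.768 (adjusted p = 0.00247) and Gm05769 3.43 ± 0.726 (adjusted p = 0.0215). Both lacked values on both direct hybrid arrays. These effects therefore rest on arrays that pair hybrid with parental plants and on the parents' own arrays of drought against well-watered plants. Only those parental arrays join drought to well-watered plants at these probes. For Gm01099 the drought effect was 2.70 in caroliniana and 2.97 in viridis. The hybrid effect exceeded their mean by 2.18, a difference that was not called. On the arrays of hybrid with parental plants, Gm01099 had 0.968 for H1D over C2D and -1.29 for C1D over H3D. It had 2.44 for H3D over V3D and -3.89 for V3D over H2D, so each hybrid drought plant exceeded its parental partner. The well-watered pairs lay closer to 0, with -0.740 for H3W over C3W, -0.169 for C1W over H3W, -0.532 for H1W over V3W and -0.611 for V3W over H2W. The submitters marked the array of V3D and H2D as bad, and without it the effect was 4.66 for Gm01099 and 2.85 for Gm05769. Gm05769 lost its call without any 1 of 8 plants, among them H1W (3.23), H3W (3.85) and V3D (2.38), whereas Gm01099, Gm05985 and Gm06115 passed without each of the 18.

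PSAD, the subunit of photosystem I that docks ferredoxin, did not follow with all plants. Its probe Gm06019 had 0.321, -0.00284 and 0.337 in the drought plants, against -0.534, 0.146 and -0.523 in the well-watered plants. H2W exceeded H2D, so the groups overlapped, and the effect was 0.50 ± 0.127 (adjusted p = 0.0561). Without H2W it was 0.70 ± 0.104 (adjusted p = 5.8e-04), while the second PSAD probe, Gm10356, had -0.17 and did not pass in either fit. Over the 6 probes of the light-harvesting and photosystem list the median effect was 2.31, against -0.0444 over all probes, and 4 passed with all plants and 5 without H2W, all positive, where 1.75% and 5.9% of all probes were.

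Chlorophyll synthesis was represented by CHLH, the subunit of magnesium chelatase that binds protoporphyrin, and both of its probes passed on the positive side. Gm06139 had 0.441, 0.277 and 0.777 in the drought plants, against -0.509, -0.196 and -0.556 in the well-watered plants. The groups did not overlap, and the effect was 0.87 ± 0.143 (adjusted p = 0.00221) with all plants. Without H2W the call held (adjusted p = 0.0019). Gm06047 had 1.28, 0.415 and 0.618 in the drought plants, against -0.514, 0.287 and -1.02 in the well-watered plants. Its effect was 1.13 ± 0.260 (adjusted p = 0.0291), and its call ended without any 1 of 11 plants, with effects of 1.01 to 1.25. GSA1, which makes aminolevulinate, and HEMB, which joins aminolevulinate into the pyrrole ring, had -0.0669 and -0.0734 and did not pass. The list of chlorophyll and haem synthesis thus had 2 of 4 probes called, both positive and of 1 gene, where 1.75% of all probes were called positive.

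**Figure D3:**
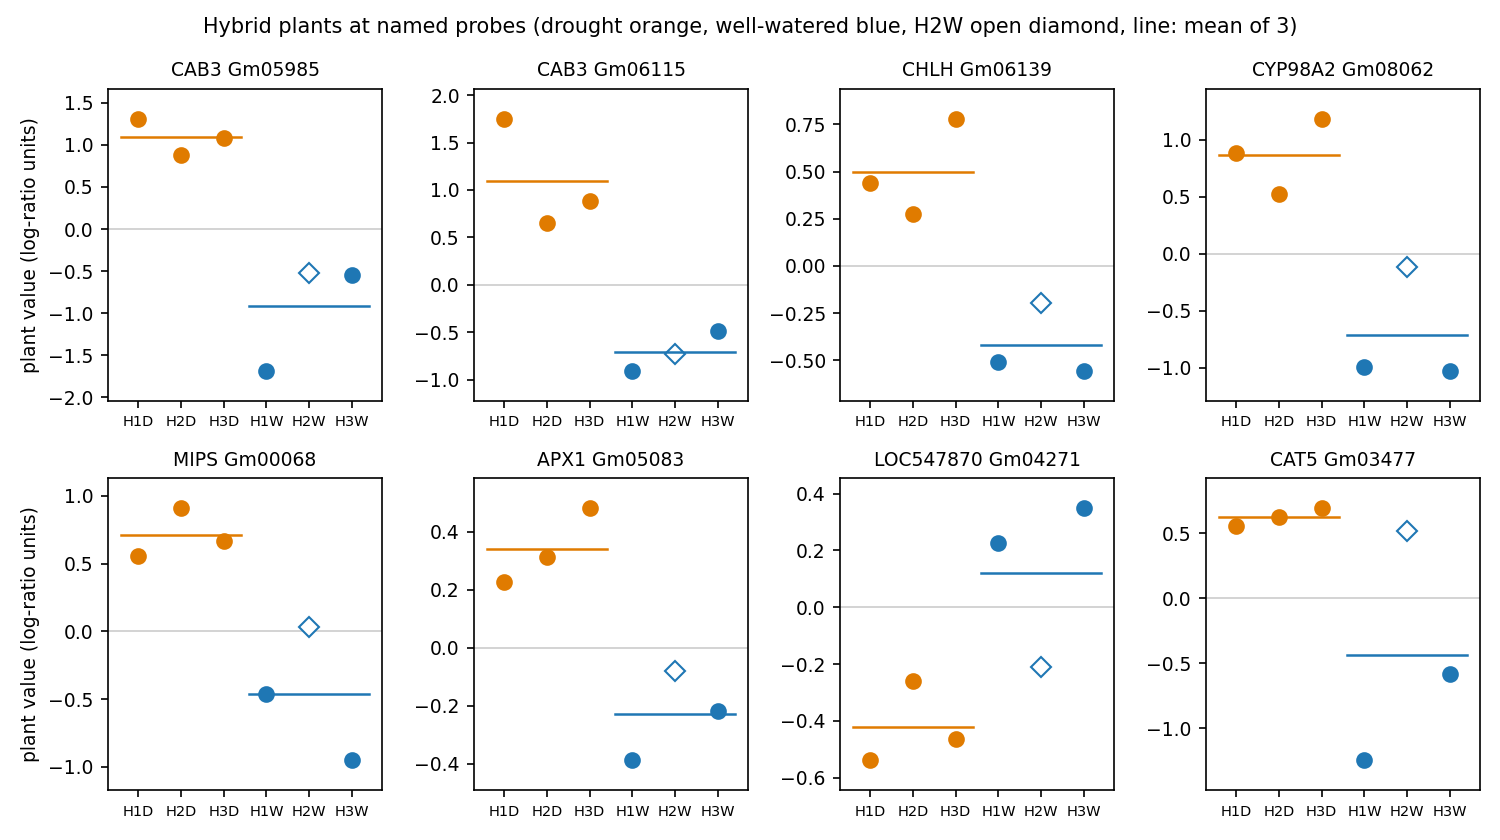
Plant values (vertical axis, log-ratio units, own scale in each panel) of the 3 drought (orange) and 3 well-watered (blue) hybrid plants at 8 named probes, with H2W as an open diamond and the mean of each group as a line. H2W sits with the well-watered plants for CAB3 Gm06115 (-0.733), between the groups for MIPS Gm00068 (0.0316) and beside the drought plants for CAT5 Gm03477 (0.514). That CAT5 probe passed without H2W but not with all plants.

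Of the phenylpropanoid, flavonoid and isoflavonoid list, 1 of 30 probes passed with all plants. It was Gm08062 of CYP98A2, the cytochrome P450 that hydroxylates coumaroyl esters on the way to lignin and chlorogenic acid. This probe had 0.884, 0.525 and 1.18 in the drought plants, against -0.994, -0.119 and -1.02 in the well-watered plants. The groups did not overlap, with H2W nearest to the drought plants, and the effect was 1.34 ± 0.206 (adjusted p = 0.00113). The call ended without H1W (1.2, adjusted p = 0.0528). The other CYP98A2 probes, Gm12080 and Gm15708, had 0.16 and -0.20, on either side of 0, and did not pass. Without H2W 3 probes of the list passed on the positive and 1 on the negative side, shares of 10% and 3.33% against 5.9% and 8.95% of all probes. Those that entered were IF7GT, an isoflavone glucosyltransferase (0.70 ± 0.130), CHR1, chalcone reductase, with 1 of its 4 probes (0.36 ± 0.109), and F3H, flavanone 3-hydroxylase, with 1 of its 3 probes (-0.29 ± 0.0836). The median effect of the list was -0.00553 with all plants and -0.00615 without H2W.

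MIPS, which converts glucose phosphate to inositol phosphate, passed on the positive side with 3 of 3 probes. Gm00068 had 0.559, 0.907 and 0.663 in the drought plants, against -0.461, 0.0316 and -0.949 in the well-watered plants. Gm03671 had 0.569, 0.258 and 0.224 in the drought plants, against -0.415, 0.0908 and -0.243 in the well-watered plants. Gm05530 had 0.413, 0.0756 and 0.163 in the drought plants, against -0.262, 0.0053 and -0.330 in the well-watered plants. In all 3 probes the groups did not overlap and H2W was the well-watered plant nearest to the drought plants. The effects were 0.92 ± 0.185, 0.545 ± 0.103 and 0.398 ± 0.0773 (adjusted p = 0.0118, 0.00658 and 0.00849). They were 1.14, 0.614 and 0.419 without H2W. All 3 calls ended without H1W (effects of 0.69, 0.449 and 0.406), and further ones without H2D (0.689 for Gm00068 and 0.505 for Gm03671), H1D (0.355 for Gm05530) or the caroliniana drought plant C2D (0.843 for Gm00068).

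SAMDC, the S-adenosylmethionine decarboxylase of polyamine synthesis, was split between its 4 probes. Gm01668 had an effect of 0.50 ± 0.149 (adjusted p = 0.124) and Gm01259 0.32 ± 0.12 (adjusted p = 0.249). Both passed on the positive side without H2W, at 0.73 ± 0.139 and 0.48 ± 0.136. Gm05287 and Gm05361 had -0.13 and -0.15 with all plants, on the other side, and did not pass in either fit. ADC, arginine decarboxylase, had 0.0457 ± 0.242. The inositol, polyamine and osmolyte list as a whole had 3 of 8 probes called with all plants and 5 of 8 without H2W, all positive, where 1.75% and 5.9% of all probes were.

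Among the enzymes that scavenge peroxide and superoxide, APX1, ascorbate peroxidase, passed with 1 of its 3 probes. Gm05083 had 0.226, 0.313 and 0.480 in the drought plants, against -0.386, -0.0790 and -0.219 in the well-watered plants. The groups did not overlap, and the effect was 0.468 ± 0.0927 (adjusted p = 0.0102). Without H1W it was 0.335 and without H2D 0.365, and neither passed. Gm02338 had 0.57 ± 0.227 (adjusted p = 0.278) and passed without H2W at 0.81 ± 0.236, while Gm05712 had 0.00817.

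Both catalases missed the threshold with all plants and passed without H2W. With each of the 18 plants left out in turn, CAT5 missed it 16 times and CAT1 17 times. CAT5 Gm03477 had 0.552, 0.625 and 0.690 in the drought plants, against -1.24, 0.514 and -0.582 in the well-watered plants. The drought plants lay close together and H2W lay just under them, and the effect was 1.16 ± 0.327 with all plants (adjusted p = 0.098). It was 1.76 ± 0.291 without H2W (adjusted p = 0.00158). CAT1 Gm00800 had 0.535, 0.208 and 0.368 in the drought plants, against -0.738, 0.558 and -0.533 in the well-watered plants. Here H2W was the highest of the 6 plants, and the effect was 0.66 ± 0.219 (adjusted p = 0.183) with all plants and 1.06 ± 0.179 (adjusted p = 0.0019) without H2W. The peroxidases PRX2B and PRX4 had 0.15 and -0.00842, and SODB, an iron superoxide dismutase, had 0.0291, none of them called in either fit. The list had 1 of 8 probes called with all plants and 4 of 8 without H2W, all positive, where 1.75% and 5.9% of all probes were, with median effects of 0.306 and 0.383.

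**Figure D4:**
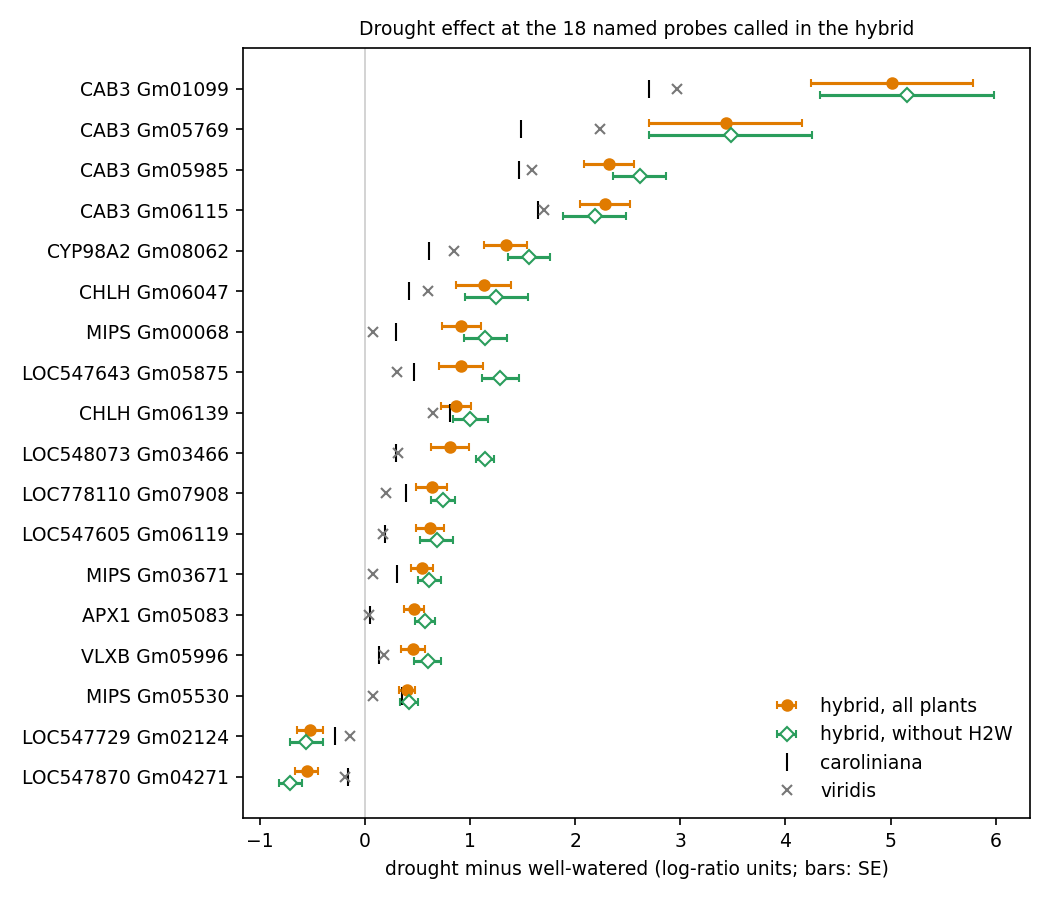
Drought effect (horizontal axis, log-ratio units, drought minus well-watered, bars for the standard error) of the 18 named probes called in the hybrid with all plants, for the hybrid with all plants, the hybrid without H2W, caroliniana and viridis. From 5.01 for CAB3 Gm01099 to -0.555 for LOC547870, all estimates for caroliniana and viridis lie on the side of the hybrid and nearer to 0.

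VLXB, a vegetative lipoxygenase, was the 1 call with all plants among 13 probes for lipoxygenases, where 1.75% of all probes were called positive. Gm05996 had 0.176, 0.415 and 0.320 in the drought plants, against -0.307, 0.0187 and -0.0031 in the well-watered plants, without overlap. Its effect of 0.458 ± 0.110 (adjusted p = 0.0396) lost its call without any 1 of 14 plants, with effects of 0.321 to 0.487. LOX2, another lipoxygenase, passed on the negative side without H2W with 1 of its 2 probes, Gm16500 (-0.39 ± 0.102). In that fit the list had 1 positive and 1 negative call, 7.69% each, against 5.9% and 8.95% of all probes. VLXC Gm10164 had 0.34 ± 0.194 and LOX3 -0.16 to -0.0177 over its 4 probes, and none passed in either fit.

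The other named calls bore locus symbols whose roles the probe table does not give. On the positive side these were LOC547643 Gm05875 (0.914 ± 0.207), LOC548073 Gm03466 (0.807 ± 0.181), LOC778110 Gm07908 (0.635 ± 0.148) and LOC547605 Gm06119 (0.62 ± 0.131), with adjusted p from 0.0163 to 0.032. The calls of the first 3 ended without any 1 of 13 or 14 plants, and that of LOC547605 without H1W (0.511) or H2D (0.525). LOC547643 and LOC548073 each had 1 of 2 tested probes called, and LOC547605 had 1 of 4. LOC548073 Gm03466 had 0.719, 0.438 and 0.411 in the drought plants, against -0.741, 0.440 and -0.522 in the well-watered plants. H2W lay level with H2D there, and without H2W the effect was 1.14 ± 0.0881 (adjusted p = 1.34e-06). LOC547870 Gm04271, on the negative side, had -0.538, -0.260 and -0.465 in the drought plants, against 0.227, -0.211 and 0.348 in the well-watered plants. Its effect was -0.555 ± 0.107 (adjusted p = 0.00772), without overlap, and it did not pass without H1W (-0.556, adjusted p = 0.0732). LOC547729 Gm02124 had -0.523 ± 0.125 (adjusted p = 0.0414), and its call ended without any 1 of 15 plants.

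Most calls fell on probes without a single gene symbol, and so did most of the 7880 probes tested. Of the 467 tested probes with a single symbol, for 309 genes, 18 were called with all plants, 16 positive and 2 negative, for 12 genes. Over all probes tested, 1.75% were called positive and 0.317% negative. The largest positive effects without a symbol were 5.41 ± 0.858 for Gm05767, 5.12 ± 0.613 for Gm13870, 4.86 ± 0.820 for Gm05865, 4.40 ± 0.645 for Gm03420 and 4.33 ± 0.467 for Gm12431. Gm05767, Gm05865 and Gm03420 lacked values on both direct hybrid arrays. Gm13870 had 2.66, 3.48 and 2.19 in the drought plants, against -2.35, -0.602 and -2.04 in the well-watered plants. Its array of H2D against H1W stood at 5.58, the highest value deposited in the series. The groups were far apart, with H2W again the nearest to the drought plants. The largest negative effects were -2.10 ± 0.289 for Gm03935, -1.35 ± 0.231 for Gm04675, -0.868 ± 0.188 for Gm08180, -0.806 ± 0.148 for Gm00631 and -0.76 ± 0.173 for Gm10703. Gm03935 was steady over the direct arrays, at -2.71 for H2D against H1W and -2.48 for H1D against H2W.

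Of the 467 named probes, 81 were called without H2W, 46 positive and 35 negative, for 69 genes. Over all probes in that fit, 5.9% were called positive and 8.95% negative. Beyond those above, the largest named positive effects were LOC732655 with 1 of 2 probes (2.15 ± 0.387) and both probes of LOC547652 (1.12 ± 0.165 and 1.02 ± 0.230). LOC547652 Gm05949 had 0.899, 0.326 and 0.420 in the drought plants, against -0.792, 1.18 and -0.786 in the well-watered plants, so that H2W exceeded every drought plant and the effect with all plants was 0.56 ± 0.318 (adjusted p = 0.439). On the negative side the largest besides LOC547870 and LOC547729 were GAI1, a DELLA repressor of gibberellin response (-0.606 ± 0.114), SEP1, a MADS-box factor (-0.535 ± 0.145), and H-1 (-0.53 ± 0.12). NRT1-3, a nitrate transporter (-0.43 ± 0.131), and RPL2, a ribosomal protein (-0.42 ± 0.0931), also passed. Of these, GAI1, H-1 and RPL2 each had 2 probes tested and 1 called. DR1 passed with 1 of its 2 probes, Gm08495, at -0.41 ± 0.101. That probe had missed the threshold narrowly with all plants (-0.35 ± 0.0881, adjusted p = 0.0518).

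Transcription factors showed no call with all plants among 31 probes for 28 genes, with a median effect of -0.104. Without H2W 6 passed, MYB143 (0.65 ± 0.137) and DREB1, a dehydration-responsive element-binding factor (0.29 ± 0.0846), on the positive side, and BZIP55 (-0.41 ± 0.129), NAC2 (-0.40 ± 0.104), MYB57 (-0.29 ± 0.0789) and WRKY53 (-0.22 ± 0.0624) on the negative side. These shares, 6.45% and 12.9%, stood beside 5.9% and 8.95% of all probes. DREB1 had 0.148, 0.295 and 0.165 in the drought plants, against 0.00522, 0.198 and -0.324 in the well-watered plants, so H2W exceeded H1D and H3D. Without H2W the 12 probes of seed maturation proteins (PM symbols) had 4 positive calls, 2 of 3 PM37 probes (0.77 and 0.53) and 2 of 2 PM23 probes (0.68 and 0.55), and 1 negative call, PM34 (-0.41). These are shares of 33.3% and 8.33%, against 5.9% and 8.95% of all probes. None of the 12 passed with all plants. PIP2-6, an aquaporin of the plasma membrane, had 0.19 ± 0.147 with all plants and passed without H2W at 0.40 ± 0.117.

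Several lists had no call in either fit. These were 7 probes for glutathione transferases (effects of -0.20 to 0.14 with all plants), 6 for 14-3-3 proteins (-0.15 to 0.13), 3 for the chaperone BIP4 (-0.0959 to -0.0613), 1 for the cell wall invertase CWINV (0.049) and 2 for nodulin NOD33 (-0.0218 and 0.0963). The reference genes GAPC1 and TUBB3, for glyceraldehyde-3-phosphate dehydrogenase and tubulin, had effects of 0.0920 to 0.25 over 3 probes and did not pass either. Among markers of other organs, 6 probes for the seed storage proteins GY1, GY2, GY5 and KTI3 had -0.33 to -0.0283 with all plants, and 2 of 6, GY2 (-0.38 ± 0.0876) and GY1 Gm10700 (-0.24 ± 0.0750), passed on the negative side without H2W, as did 8.95% of all probes. Their part in the other results was not tested.

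The question whether drought acted differently in the hybrid was put to the data as the hybrid effect minus the mean of the caroliniana and viridis effects, each from 3 drought and 3 well-watered plants. With all plants no probe passed in limma's moderated test (0%), and 431 of 7880 (5.47%) had an unadjusted p under 0.05. The smallest adjusted p of a named probe was 0.772, shared by APX1, MET2, MIPS and LOC547870 among others. APX1 Gm05083 had 0.468 in the hybrid, against 0.0508 in caroliniana and 0.0403 in viridis, with a difference of 0.422. Without H2W 471 probes passed, 307 positive (3.9%) and 164 negative (2.08%). Of these, 431 were also called for drought in the hybrid, all on the same side, where 1170 of all 7879 probes were called. The difference contains the hybrid effect of the same fit, so this overlap and its side test nothing. The count of 471 became 57 when H3W and 61 when H1W was left out as well.

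Of the 467 named probes, 39 were called for this difference without H2W, 31 of them positive. Over all probes 471 of 7879 were called, and 65.2% of these were positive. MIPS Gm00068 had an effect of 1.14 without H2W in the hybrid, against 0.29 in caroliniana and 0.0808 in viridis with all plants, and a difference of 0.921 ± 0.201 (adjusted p = 0.02). CYP98A2 Gm08062 differed by 0.844 ± 0.197 (adjusted p = 0.0251), CAT5 by 1.2 ± 0.285 (adjusted p = 0.0265), CAT1 by 0.798 ± 0.175 (adjusted p = 0.0203) and CAB3 Gm05985 by 1.07 ± 0.247 (adjusted p = 0.0247). In the same limma test MIPS Gm03671 passed at 0.432 (adjusted p = 0.0324), and MIPS Gm05530 did not, at 0.217 (adjusted p = 0.123). The other CAB3 probes, both CHLH probes and VLXB did not pass this test either, with adjusted p of 0.0662 to 0.323. LOX1.1 Gm16966, a lipoxygenase, passed at 0.919 ± 0.135. It had 0.39 in the hybrid without H2W, against -0.48 in caroliniana and -0.47 in viridis with all plants, none of which passed alone. On the negative side stood GAI1 (-0.538 ± 0.117), LOC547870 (-0.514 ± 0.106), H-1 (-0.506 ± 0.12), PM34 (-0.436 ± 0.114) and LOC100101914 (-0.40 ± 0.0853). Among called probes with no symbol the largest differences were 2.47 for Gm13870, 2.03 for Gm05384 and 1.97 for Gm12431 on the positive side, and -0.678 for Gm10159, -0.644 for Gm09970 and -0.621 for Gm13715 on the negative side.

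The probes can also be chosen by the drought effect of the parents, although the fit behind that choice shares the hybrid arrays. In the mean of caroliniana and viridis 82 probes were called positive (1.04%) and 20 negative (0.254%). In the hybrid 79 of the 82 were also called on the positive side, against 1.75% of all probes, and the hybrid effect was the larger in 79 of 82. The median effect over them was 1.66 in the hybrid, or 1.83 without H2W, and 1.16 in the parents' mean. At the 69 complete probes the hybrid drought plants had medians of 0.964, 0.524 and 0.777, against -1.16 in H1W, -0.245 in H2W and -0.658 in H3W. The parental drought plants had medians between 0.141 and 0.847, against -0.288 to -0.762 in the parental well-watered plants. On the negative side 9 of the 20 were called in the hybrid, or 14 without H2W, and the hybrid effect was larger in size in 10, with medians of -0.470 in the hybrid and -0.526 in the parents' mean. Errors are shared along the loop of arrays, and the difference itself was called at no probe with all plants.

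The named probes were chosen for passing in the hybrid, so fewer calls in the parents are no test of a difference. CHLH Gm06139 passed in the hybrid (0.87), in caroliniana (0.81) and in viridis (0.65), and CAB3 Gm05985 and Gm06115 passed in all 3 as well. CAB3 Gm01099 and MIPS Gm05530 passed in the hybrid and caroliniana, and none of the other 13 named calls of the hybrid passed in either parent. As background, positive calls made up 0.698% of all probes in caroliniana and 0.673% in viridis. Of the 163 hybrid calls, 163 had the same sign in all 3 morphotypes, as did 47.3% of all probes tested. With the hybrid sign taken without H2W and the parents' signs with all plants, this held for 841 of the 1170 calls. That is 71.9%, against 42.2% of all probes.

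The calls were uneven along the numbers of the clones, whose order on the array or in the library is not given. The 250 tested probes numbered 5602 to 6120 held 71 of the 138 positive calls, 28.4% of the stretch against 0.878% of the 7630 others, and 1 negative call. This stretch was chosen as the densest, and it held 7 of the 16 named positive calls, 3 CAB3 probes, CHLH Gm06047, VLXB, LOC547643 and LOC547605. Without H2W a wider step appeared. Clones numbered below 9000 had 392 positive and 200 negative calls among 4261 probes, and those from 9000 upward 73 positive and 505 negative calls among 3619.

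The parents' medians stood nearer to 0 there, a difference that was not tested. At the higher clone numbers the median effect was -0.0835 in the hybrid and -0.152 without H2W, against -0.00227 in caroliniana and -0.0190 in viridis. The median plant values there were -0.0869, -0.159 and -0.139 in H1D, H2D and H3D, against 0.00356 in H1W, -0.121 in H2W and 0.185 in H3W. H2W stood with the drought plants and H3W highest. The boundary was set after the values were seen. With arrays centred within bins of 1000 clone numbers, 160 probes passed with all plants, and 775 without H2W, 61.2% of them positive. No array layout was used here, so the part of clone position in the calls was not tested.

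**Figure D5:**
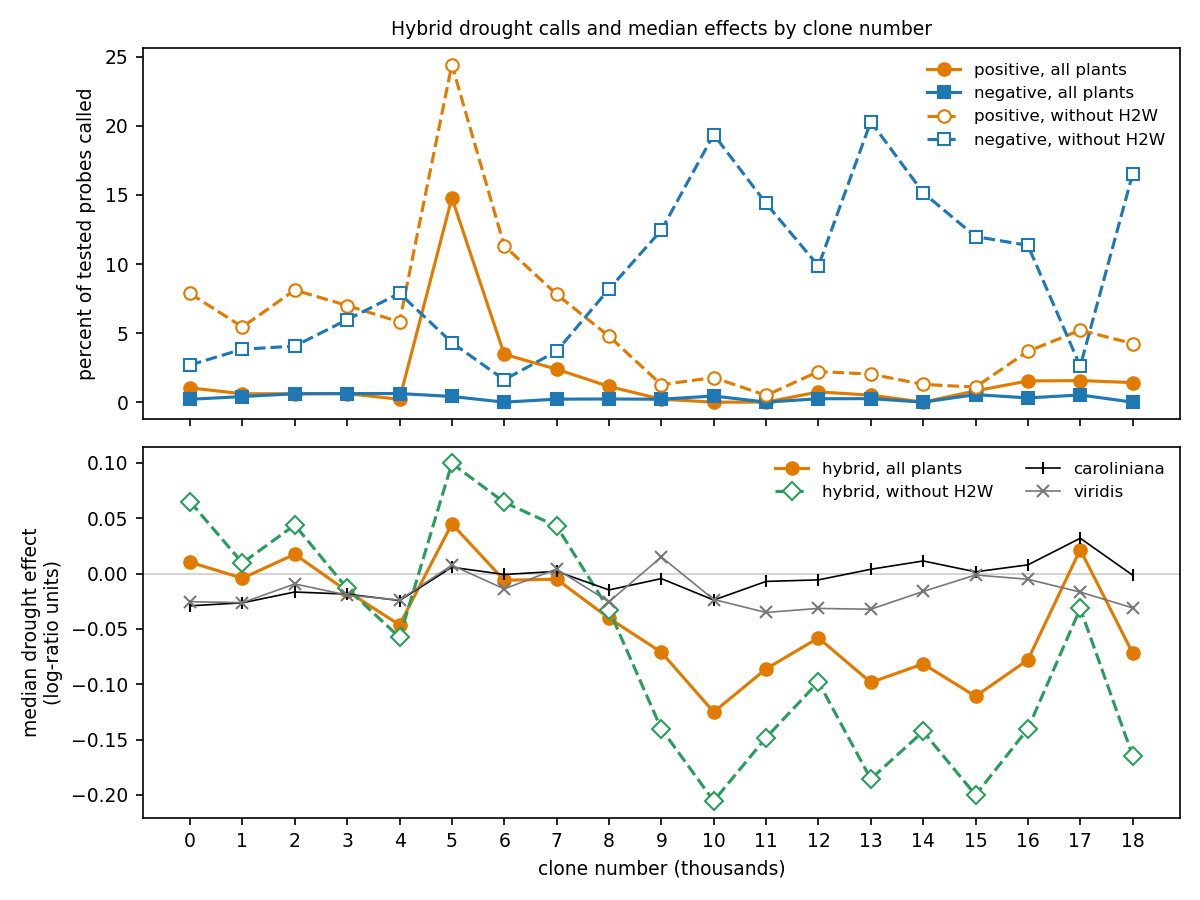
Share of tested probes called (upper panel, percent) and median drought effect (lower panel, log-ratio units) by clone number in bins of 1000, for the hybrid with all plants and without H2W, with caroliniana and viridis in the lower panel. The positive calls peak among clones 5000 to 5999, where 72 of 487 probes passed with all plants, and without H2W the negative calls outnumber the positive ones from 8000 upward, except among clones 17000 to 17999.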

How the data were processed

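Leaf RNA of 18 plants was compared on 18 two-colour arrays. Per the labels' protocols the RNA was amplified and dye-labelled. The authors deposited normalised log ratios, recorded here as log2 although their base, method of normalisation and channel order are not given in the sources used here. The second plant code of each title is the Cy5 plant, as the dye labels show. Probes with values on at least 14 of 18 arrays were tested, and nothing was centred, scaled or filled in.

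All 18 arrays entered a generalised least-squares fit per probe, whose terms were the means of 6 groups, a dye offset and a random plant effect (+1 for Cy5, -1 for Cy3). The ratio of plant to array variance was 1 value for all probes by restricted maximum likelihood (0.251, and 0.187 without H2W). Variances were moderated with limma 3.58.1 in R 4.3.3 (prior df 3.95, residual df 12 for complete probes), tests were two-sided, and p-values were adjusted by Benjamini-Hochberg over all probes of a comparison, with a threshold of 0.05. Plant values are least-squares solutions of the loop with a dye term. The scripts were tested on simulated data. Figures used matplotlib 3.10.9 in Python 3.11.15.

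Gene symbols came from the supplied annotation of the probes. Of 9600 probes, 8176 had a value and 546 had 1 symbol. Named are all single-symbol probes called in the hybrid, the 15 largest on each side without H2W, list members that passed in either fit with at most 3 others a list, all named probes called for the difference from the parents (with all plants, the 5 smallest p), and of probes without a symbol the 5 largest on each side (3 for the difference from the parents). Of the larger sets the text gives the leading probes. The members, the 16 gene lists, which match soybean symbols, and the leaving out of H2W were chosen with earlier results of these data known.

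Alternatives were each plant left out, the array marked bad left out, 1 array's sign turned, a plant given its own mean, independent or weighted arrays, centring, scaling, other filters, no dye term, a replicate block and the hybrid arrays alone.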

Additional observations from a re-analysis of the deposited data

Results flagged for a closer look

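The drought effect of the hybrid differed from the mean effect of its parents at 471 probes by the test of the difference once plant H2W was left out, and at 0 with all plants (limma, 431 at an unadjusted p under 0.05). The 5 named probes with the smallest p in that test were LOC548073 Gm03466 (0.834), LOX1.1 Gm16966 (0.919), LOC547652 Gm05949 (1.08), PRO2 Gm00031 (0.808) and LOC547801 Gm05001 (0.722), all hybrid minus parents without H2W in log-ratio units. H2W had the highest plant value of the 6 hybrid plants at LOX1.1 (1.02), LOC547652 (1.18), PRO2 (0.864) and LOC547801 (0.777), and lay at 0.440 for LOC548073, under H1D alone (0.719). The part of H2W, as plant or as sample, in these differences was not tested.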

How the results depend on the processing

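The count of 163 calls ran from 61 without H1W to 1170 without H2W over the plants left out. The count was 70 without H2D, 105 without H3W, 229 without H1D and 224 without V3W. It was 1126 without H2W and V3D, 1400 with a mean of its own for H2W, 352 with the sign of the array of H2W and V3W turned, 503 with weighted, independent arrays, 277 with arrays scaled alike and 19 with the hybrid arrays alone. The positive share, 84.7%, was 54.3% with weighted arrays, 74.7% with scaled arrays and 71.6% with the turned sign. The 0 calls for the difference from the parents ran from 0 to 471 over the plants left out (1 without V3D), and became 392 without H2W and V3D, 545 with a mean of its own for H2W, 141 with the turned sign, 364 with weighted arrays and 1 with a mean of its own for H1D.

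Without H2W, further plants left out gave 213 (also without H1W) to 1385 (also without V1W) calls in place of 1170, among them 258 without H2D and 298 without H3W. The count was 654 without a dye term and 775 with arrays centred within bins of 1000 clone numbers, a setting chosen after seeing the data. The 471 differences ran from 57 (also without H3W) to 584 (also without C2D), with 61 also without H1W, and were 858 with independent arrays, 1285 with weighted ones and 230 with arrays scaled alike. The positive share of 65.2% was 83.0% with centred arrays.

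Deviations of drought and well-watered hybrid plants of the same number correlated over probes at -0.497, -0.256 and 0.0678 for numbers 1, 2 and 3. For the pairs on the direct arrays the values were 0.582 (H2D with H1W) and 0.283 (H1D with H2W). The remaining pairs lay between -0.127 and 0.0996. Plants on the same array share its error, so these values cannot decide whether plant numbers mark pairs. With a replicate block for plant number, 202 probes passed with all plants and 923 without H2W, and 18 of the 18 named calls passed, so the block changed none of them. Of the 18, 4 passed without H1W, 8 without H2D and 2 with the hybrid arrays alone, at least 11 under each other setting, and no sign changed where the probe was tested. Over all named probes and settings 127 calls were lost, 72 gained and 0 reversed. The channel intensities were not used here, so signal over background is unknown and no limit of detection can be given. With 3 plants a group, leaving out 1 plant can end a call, as with H1W and H2D here. Leaving out H2W raised the count to 1170, and leaving out H1D or V3W, which share its arrays, to 229 and 224. Whether these gains follow the plants or their arrays was not tested. Where calls ended without H1W, the effect shrank at some probes, as at APX1 Gm05083 (0.468 to 0.335). At others it did not, as at MIPS Gm05530 (0.398 to 0.406). Whether such calls ended through the plant's own values or through the smaller group was not tested.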
